A study of Penicillium oxalicum with 12 samples.

Results

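The genes that build chromatin and write its marks were followed in Penicillium oxalicum, a filamentous fungus grown as mycelium. A gene was taken as a member when its protein description or its single KEGG orthology name held the word histone, the H2B gene PDE_01489 included, and when its level was at least 1 FPKM (the fragment count divided by transcript length in kilobases and by the mapped total of its library) in at least 3 libraries. Of the 9931 genes measured, 37 were so named and 36 passed the filter on low values. They fell into 8 histone genes, 4 histone acetyltransferases, 10 histone deacetylases or subunits of deacetylase complexes, 9 histone methyltransferases, 3 histone demethylases and 2 histone chaperones or binding proteins. The names rest on KEGG alone for 31 members, and 5 also carried a protein description. The gene that did not pass, PDE_03117, is named as the methyltransferase SUV420H and lay between 0.03 and 0.90 FPKM, while the lowest member that passed, the methyltransferase PDE_04196, lay between 3.55 and 10.7 FPKM.

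Each of 4 strains was represented by 3 libraries, 12 in all. They were the wild type 114-2 (WT), a strain with a deletion of laeA (DlaeA), and strains whose histone H2B has alanine in place of lysine at position 123 (H2BK123A) or at position 131 (H2BK131A). Every culture was grown from conidia for 22 h at 30 °C with 2% glucose, after which the washed mycelia spent 24 h in Mandel's medium with 2% glucose. The sources used here do not say how the H2B alleles were put into the genome or how many clones each strain stands for.

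In the nucleosome, DNA is wrapped around an octamer of the core histones H2A, H2B, H3 and H4, and a linker histone, H1, binds where the DNA enters and leaves. Acetyltransferases and deacetylases add and remove acetyl groups on histone lysines, methyltransferases and demethylases do the same for methyl groups, and chaperones carry histones before they are laid down on DNA. In Saccharomyces cerevisiae, lysine 123 of H2B is the residue that receives a single ubiquitin from the Rad6 and Bre1 enzymes. This step precedes methylation of histone H3 by COMPASS. The same position number in H2B of P. oxalicum need not mark the equivalent residue. No H2B sequences were compared, so whether either mutated lysine is the equivalent of that residue was not tested. LaeA, a methyltransferase-like protein of filamentous fungi, is known for its control of secondary metabolism and development.

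PDE_00584, which is recalled as laeA but carries no such name in the table, stood at 34.9, 37.9 and 33.9 FPKM in WT and at 0.11, 0.05 and 0 FPKM in DlaeA, while it averaged 34.3 ± 1.13 FPKM (SD, n = 3) in H2BK123A and 37.4 ± 3.24 FPKM (SD, n = 3) in H2BK131A. A change of 1 codon does not show in FPKM, so the labels of the H2B strains could not be checked in this way. The libraries summed to between 709483.7 and 764698.6 FPKM, and 157 to 284 genes per library were listed at 0. The spread between libraries was widest in WT, where the SD of a member had a median of 0.189 on the log2 scale, against 0.0925 in DlaeA, 0.0808 in H2BK123A and 0.0549 in H2BK131A. In the summed FPKM of 7 markers of asexual structures (BrlA, FlbD, DIT1 and conidial pigment enzymes), WT 2 stood apart from WT 1 and WT 3. The sum in WT 2 was 948.5 against 7556 in the highest WT library. This sum does not stand for each marker. BrlA at PDE_00087 stood at 5.67, 19.7 and 28.9 FPKM in WT and FlbD at 63.8, 98.2 and 138 FPKM, with WT 2 in between. DlaeA 2 and DlaeA 3 lay close together, with a median difference between them of 0.048 on the log2 scale over the members.

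In DlaeA, the 4 most abundant core histone genes and the linker histone gene fell against WT, while 2 of the 8 histone genes, PDE_08392 and PDE_09954, rose. Of the enzymes, 3 of 4 acetyltransferases, 5 of 10 deacetylases, 4 of 9 methyltransferases and 3 of 3 demethylases rose, as did the chaperone ASF1, where 46.3% of all genes did so. The 4 methyltransferase calls were lost under median ratio scaling. In total 24 of the 36 members were called in DlaeA, 18 higher and 6 lower, at an adjusted p under 0.05 in limma. The background was 69.9% of all 9431 genes tested (46.3% higher, 23.6% lower), so that the members' share of 66.7% was near it. The median log2 fold change was 0.23 over the members and 0.27 over all genes, and 3 called members changed by at least 2-fold.

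H2BK123A showed the smallest number of calls, with 12 of 36 members called, 9 higher and 3 lower, a share of 33.3% against a background of 46.6% (33.5% higher, 13.1% lower). In H2BK131A 19 of 36 members were called, 14 higher and 5 lower, a share of 52.8% against a background of 70.8% (40.6% higher, 30.2% lower). Without WT 2, the counts were 24, 16 and 20 in DlaeA, H2BK123A and H2BK131A, and the backgrounds were 73.4%, 55.5% and 72.4%. The comparisons share the WT libraries. Of all genes called, 66.3%, 71.8% and 57.4% were higher in DlaeA, H2BK123A and H2BK131A. Scaling the libraries by their median ratio moved the median log2 fold change of all genes from 0.27, 0.18 and 0.13 to 0.02, -0.01 and -0.02. It also moved the share of higher calls to 50.6%, 49.9% and 48.8%, and the members then split into 12 higher and 11 lower in DlaeA, 6 and 9 in H2BK123A, and 9 and 11 in H2BK131A. Counts of higher and lower members therefore depended on the scaling, and folds relative to the median of all genes are given for H2A, PDE_08392 and ASF1.

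**Figure D1:**
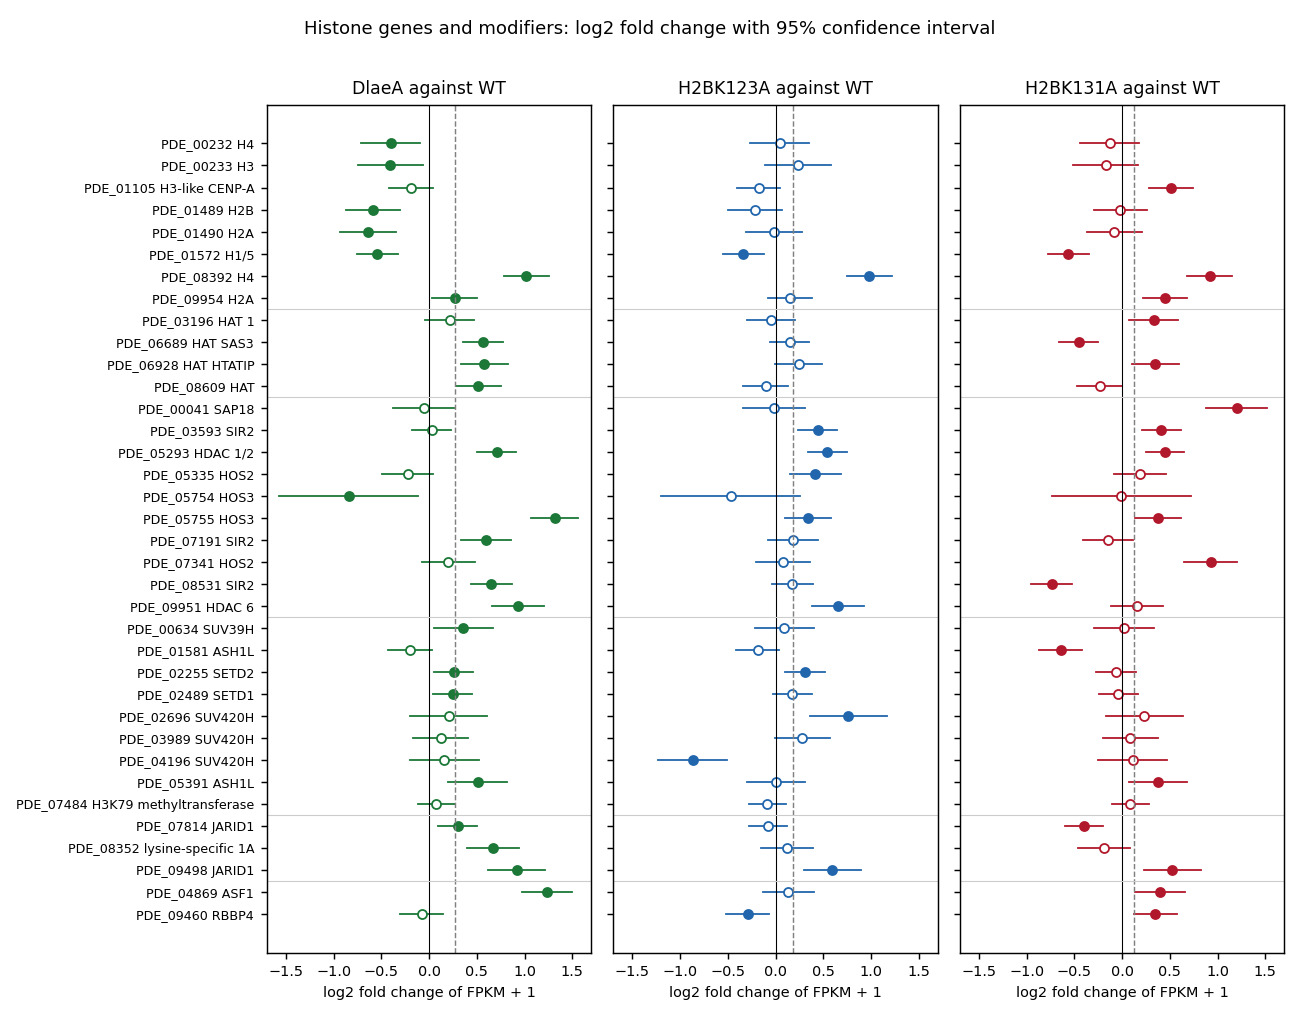
Log2 fold change of FPKM + 1 against WT (x axis) for each of the 36 members (y axis, grouped as histones, acetyltransferases, deacetylases, methyltransferases, demethylases and chaperones) in DlaeA, H2BK123A and H2BK131A. Points are limma estimates with 95% confidence intervals, filled where the adjusted p was under 0.05, and the dashed line is the median of all 9431 genes tested, at 0.27, 0.18 and 0.13.

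The 4 main core histone genes lay in neighbouring pairs of locus numbers, PDE_00232 (H4) with PDE_00233 (H3) and PDE_01489 (H2B) with PDE_01490 (H2A). In WT they ranked between 54 and 84 of all genes by mean FPKM. Their summed level was 5154 ± 440 FPKM (SD, n = 3) in WT and 3649 ± 112 FPKM (SD, n = 3) in DlaeA, with each DlaeA library below each WT library. It was 5296 ± 390 FPKM in H2BK123A and 4775 ± 130 FPKM in H2BK131A, both overlapping the WT range of 4875 to 5661 FPKM. In bulk RNA, fewer cells that make a transcript and less transcript per cell cannot be told apart.

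H2A (PDE_01490) stood at 1138, 1368 and 1173 FPKM in WT, and at 758, 806 and 790 FPKM in DlaeA. The lowest WT library was above the highest DlaeA library. H2A fell by 0.64 ± 0.13 (SE) on the log2 scale in DlaeA (adjusted p = 0.00108), which is -0.91 relative to the median of all genes. In H2BK123A it stood at 1288, 1143 and 1198 FPKM and in H2BK131A at 1171, 1131 and 1163 FPKM, within the WT range or close to it. Neither H2B strain was called for H2A, with log2 fold changes of -0.02 and -0.08 (adjusted p = 0.927 and 0.596).

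H2B itself (PDE_01489), the histone mutated in 2 of the strains, stood at 1055, 1194 and 1073 FPKM in WT and at 691, 793 and 724 FPKM in DlaeA. It fell by 0.59 ± 0.13 (SE) on the log2 scale in DlaeA (adjusted p = 0.0015). In H2BK123A it was at 991, 890 and 977 FPKM, all below the lowest WT library. The log2 fold change there was -0.22 ± 0.13 (SE), with a 95% confidence interval from -0.50 to 0.06, and was not called (adjusted p = 0.187). Under median ratio scaling it was -0.43 and called (adjusted p = 0.0119). In H2BK131A it was at 1100, 1059 and 1117 FPKM, overlapping WT (log2 fold change -0.02, adjusted p = 0.906).

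H3 (PDE_00233) stood at 1427, 1810 and 1524 FPKM in WT and at 1073, 1244 and 1267 FPKM in DlaeA, a change of -0.41 ± 0.16 (SE) on the log2 scale (adjusted p = 0.036). The partner H4 gene (PDE_00232) stood at 1255, 1289 and 1155 FPKM in WT and at 1013, 917 and 870 FPKM in DlaeA, a change of -0.40 ± 0.14 (SE) (adjusted p = 0.0223). Neither was called in H2BK123A, where H3 reached its highest levels of 2031, 1724 and 1827 FPKM, or in H2BK131A. These falls were less firm than those of H2A and H2B. The call for H3 was lost on leaving out any 1 of WT 2, WT 3, DlaeA 1, DlaeA 2, DlaeA 3, H2BK123A 3 or H2BK131A 3 (adjusted p 0.0506 to 0.1002). The call for H4 was lost without DlaeA 2 or DlaeA 3 (adjusted p 0.0611 and 0.0861). All 4 core histone calls in DlaeA were lost under quantile scaling, with log2 fold changes of -0.10 for H3, -0.12 for H4, -0.32 for H2A and -0.30 for H2B.

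The other H4 gene, PDE_08392, described as H4.2, was higher than in WT in all 3 mutants, in DlaeA against the fall of the main H4 gene. It stood at 137, 137 and 120 FPKM in WT, 288, 251 and 263 FPKM in DlaeA, 277, 254 and 249 FPKM in H2BK123A, and 268, 225 and 254 FPKM in H2BK131A. Every mutant library lay above every WT library. It rose 2.03-fold in DlaeA (log2 fold change 1.02 ± 0.11, adjusted p = 5.77e-06), 1.97-fold in H2BK123A (0.98 ± 0.11, adjusted p = 3.86e-05) and 1.89-fold in H2BK131A (0.92 ± 0.11, adjusted p = 1.11e-05). The log2 fold changes were 0.75, 0.80 and 0.79 when set against the median of all genes. These calls held in each of the 21 alternative settings tried. No difference between mutants was called for PDE_08392, the differences being -0.04, -0.10 and -0.06 on the log2 scale with 95% confidence intervals inside -0.34 to 0.19. Under quantile scaling H2BK131A was called below DlaeA (-0.39, adjusted p = 0.00555) and below H2BK123A (-0.28, adjusted p = 0.0344).

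PDE_08392 made up 9.62% ± 0.23 (SD, n = 3) of the FPKM of both H4 genes in WT. The share was 22.3% ± 0.86 in DlaeA, 17.0% ± 0.99 in H2BK123A and 18.1% ± 0.41 in H2BK131A, and no mutant library overlapped WT. A single scaling factor per library leaves these shares unchanged, and they were not recomputed under quantile scaling. Genes for the same histone can share sequence, and how the authors counted tags that match both H4 genes is not stated in the sources used here, so the split between the copies is uncertain. These shares and the ratios that follow were chosen after the values were seen and are descriptions without a test.

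H2A also had a minor gene, PDE_09954, at 89.0, 111 and 85.5 FPKM in WT. It rose in H2BK131A to 136, 128 and 124 FPKM (log2 fold change 0.45 ± 0.11, adjusted p = 0.00245), above all WT libraries and in each alternative setting. In DlaeA it was at 121, 112 and 109 FPKM, which overlaps WT, and its call (log2 fold change 0.27 ± 0.11, adjusted p = 0.0408) was lost on leaving out any 1 of 10 libraries, that is any but WT 2 and H2BK131A 1 (adjusted p 0.053 to 0.153). That log2 fold change was -0.01 under median ratio scaling. The share of PDE_09954 in the FPKM of both H2A genes was 7.19% ± 0.37 in WT, 12.7% ± 0.94 in DlaeA, 8.01% ± 0.29 in H2BK123A and 10.1% ± 0.40 in H2BK131A (SD, n = 3).

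The ratio between partner genes also varied by strain. The ratio of H2A (PDE_01490) to H2B (PDE_01489) FPKM was 1.30, 1.28 and 1.23 in H2BK123A, against 1.08, 1.15 and 1.09 in WT. It was 1.10, 1.02 and 1.09 in DlaeA and 1.07, 1.07 and 1.04 in H2BK131A. The H2BK123A libraries were all above WT and the H2BK131A libraries all below it, by less. The ratio of H3 to its partner H4 gene was 1.46 ± 0.04 in H2BK123A and 1.29 ± 0.14 in WT. Their libraries barely missed overlap, the lowest H2BK123A library being at 1.414 and the highest WT library at 1.405. The ratio was 1.06, 1.36 and 1.46 in DlaeA, which overlaps both, and 1.21, 1.33 and 1.21 in H2BK131A.

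**Figure D2:**
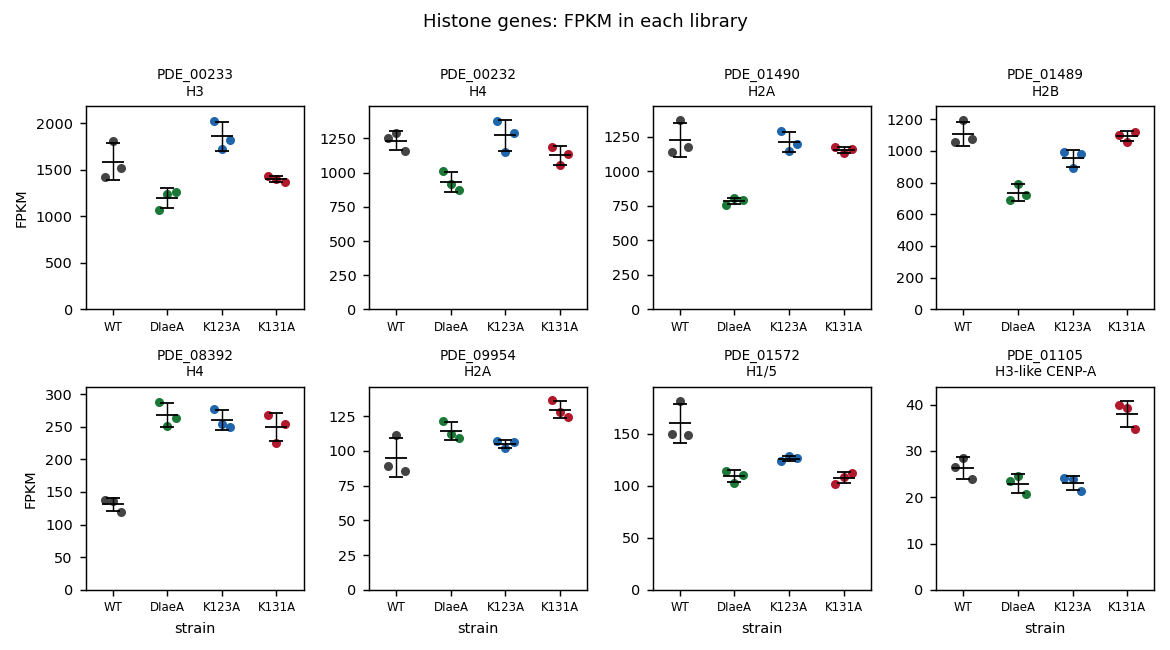
FPKM (y axes, from 0) of the 8 histone genes in each library by strain (x axes), with bars at the mean and whiskers of 1 SD (n = 3). The 4 genes of the upper row are lower in DlaeA than in WT, PDE_08392 is higher in the 3 mutants (means of 267, 260 and 249 against 131 FPKM), and PDE_01105 stands at 34.8 to 39.8 FPKM in H2BK131A.

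**Figure D3:**
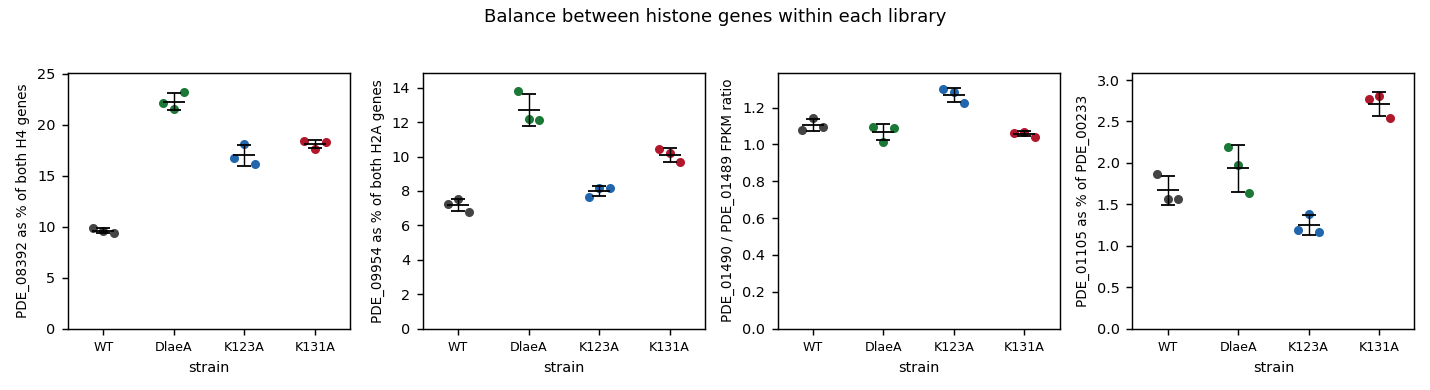
Shares and ratios of histone gene FPKM within each library (y axes, from 0) by strain (x axes), with the mean and 1 SD (n = 3). The share of PDE_08392 in H4 is 9.62% in WT and 17.0% to 22.3% in the mutants, and the H2A to H2B ratio is 1.27 in H2BK123A against 1.11 in WT.

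The linker histone gene, PDE_01572 (H1/5), stood at 150, 182 and 148 FPKM in WT. It stood at 114, 103 and 110 FPKM in DlaeA, 123, 128 and 126 FPKM in H2BK123A, and 102, 109 and 112 FPKM in H2BK131A. All mutant libraries were below the lowest WT library. H1 fell by 0.54 ± 0.10 (SE) on the log2 scale in DlaeA (adjusted p = 0.000423), by 0.34 ± 0.10 in H2BK123A (adjusted p = 0.0157) and by 0.56 ± 0.10 in H2BK131A (adjusted p = 0.000293). The call in H2BK123A was lost without H2BK123A 1 and with only the 2 strains compared (adjusted p = 0.0515 and 0.0713). Per summed FPKM of the 4 main core genes, H1 was 3.10% ± 0.10 in WT and 2.996% ± 0.25 in DlaeA, and lower in H2BK123A (2.39% ± 0.22) and H2BK131A (2.26% ± 0.15), whose libraries did not overlap WT.

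CENP-A (PDE_01105), the H3 variant that marks centromeres, stood at 26.6, 28.4 and 23.9 FPKM in WT and at 39.8, 39.3 and 34.8 FPKM in H2BK131A. It rose by 0.51 ± 0.10 on the log2 scale in H2BK131A (adjusted p = 0.000897). It was higher there than in DlaeA (log2 difference 0.70 ± 0.10, adjusted p = 6.45e-05) and than in H2BK123A (0.69 ± 0.10, adjusted p = 0.000101). DlaeA, at 23.6, 24.6 and 20.7 FPKM, and H2BK123A, at 24.1, 23.9 and 21.4 FPKM, were not called against WT. Under median ratio scaling both were called lower, at -0.46 and -0.39 on the log2 scale. Among 41 genes of DNA replication, a process with which histone supply is coupled, 16 rose and 7 fell in DlaeA, 3 rose and 13 fell in H2BK123A, and 11 rose and 14 fell in H2BK131A. These are shares of 56.1%, 39% and 61% called, against backgrounds of 69.9%, 46.6% and 70.8%. With median ratio scaling the splits were 4 and 18, 1 and 21, and 8 and 18. The summed FPKM of these genes was 1223 to 1371 in WT, 1368 to 1380 in DlaeA, 1238 to 1353 in H2BK123A and 1503 to 1578 in H2BK131A. Their median log2 fold changes were 0.09, -0.05 and -0.07 in the 3 mutants, so the sum does not stand for the single genes. The part of replication in the histone results was not tested.

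Of the histone carriers, ASF1 (PDE_04869), which hands H3 and H4 to the assembly factors, was the chaperone with the larger change. It stood at 69.0, 95.5 and 94.3 FPKM in WT and at 205, 201 and 201 FPKM in DlaeA. ASF1 rose 2.35-fold in DlaeA (log2 fold change 1.23 ± 0.12, adjusted p = 3.11e-06), or 0.96 on the log2 scale relative to the median of all genes. In H2BK123A it was at 90.6, 93.8 and 96.9 FPKM and not called. In H2BK131A it was at 121, 107 and 110 FPKM (log2 fold change 0.39 ± 0.12, adjusted p = 0.0115). That call was lost under median ratio and quantile scaling and with only the 2 strains compared.

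RBBP4 (PDE_09460), a histone-binding subunit shared by several chromatin complexes, is named here after its values were seen, as are the acetyltransferases and the demethylase PDE_07814 that follow. It stood at 31.1, 39.1 and 37.6 FPKM in WT, 33.5, 34.2 and 33.9 FPKM in DlaeA, 31.9, 28.7 and 26.8 FPKM in H2BK123A, and 44.9, 45.0 and 47.5 FPKM in H2BK131A. The H2B strains differed from each other, H2BK131A being higher by 0.64 ± 0.10 on the log2 scale (adjusted p = 0.00016). Against WT, the rise in H2BK131A was 0.35 ± 0.10 (adjusted p = 0.0094) and was lost under median ratio scaling (0.18, adjusted p = 0.112). In H2BK123A it fell by 0.29 ± 0.10 (adjusted p = 0.0359), and this call was lost without any 1 of WT 2, WT 3, DlaeA 2, DlaeA 3, H2BK123A 2 or H2BK123A 3 (adjusted p 0.0512 to 0.132).

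Acetyltransferases rose in DlaeA in 3 of 4 cases under each of the 3 scalings. None was called in H2BK123A (1 was lower there under median ratio scaling and 1 under quantile scaling). SAS3 (PDE_06689), the catalytic subunit of the NuA3 complex in S. cerevisiae, stood at 22.9, 26.1 and 21.7 FPKM in WT, 37.8, 34.3 and 33.8 FPKM in DlaeA, and 16.7, 16.0 and 17.9 FPKM in H2BK131A. It rose in DlaeA (log2 fold change 0.57 ± 0.09, adjusted p = 0.00023) and fell in H2BK131A (-0.46 ± 0.09, adjusted p = 0.00106), and these strains differed by -1.02 ± 0.09 (adjusted p = 1.09e-06). HTATIP (PDE_06928), whose counterpart in S. cerevisiae acetylates H4 in the NuA4 complex, rose from 29.3, 22.4 and 23.6 FPKM in WT to 42.4, 35.7 and 35.5 FPKM in DlaeA (0.58 ± 0.11, adjusted p = 0.000732). Its call in H2BK131A (0.35 ± 0.11, adjusted p = 0.0163) was lost without WT 3 (adjusted p = 0.0531), with only the 2 strains compared (adjusted p = 0.0511) and under median ratio scaling (0.18, adjusted p = 0.195). PDE_08609, named only as a histone acetyltransferase, rose from 28.6, 30.9 and 23.6 to 43.4, 37.8 and 38.4 FPKM in DlaeA (0.52 ± 0.11, adjusted p = 0.0011). In H2BK123A and H2BK131A it was not called (-0.10 and -0.23, adjusted p = 0.448 and 0.0684). It was called lower there in 2 and 3 of the 21 alternative settings. HTATIP, not called in H2BK123A (0.24, adjusted p = 0.0997), was called higher there in 2 of the 21. HAT1 (PDE_03196), which acetylates newly made H4 in S. cerevisiae, was not called in DlaeA (0.21, adjusted p = 0.117), and its call in H2BK131A (0.33 ± 0.12, adjusted p = 0.023) was lost without WT 1 or H2BK131A 2 (adjusted p 0.0768 and 0.0892). That call was also lost under median ratio scaling, with only the 2 strains compared and with library quality weights.

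Among the 10 deacetylase members, 5 rose and 1 fell in DlaeA, 5 rose and none fell in H2BK123A, and 5 rose and 1 fell in H2BK131A. Of all genes, 46.3%, 33.5% and 40.6% were called higher in these strains. With median ratio scaling the splits were 5 and 3, 3 and 0, and 5 and 2. The gene named HDAC 1/2 (PDE_05293), the class that includes Rpd3 of S. cerevisiae, was called higher in the 3 mutants. It stood at 59.9, 72.5 and 61.3 FPKM in WT, 107, 101 and 110 FPKM in DlaeA, 95.6, 96.6 and 90.2 FPKM in H2BK123A, and 86.9, 86.4 and 91.4 FPKM in H2BK131A. All mutant libraries lay above WT. The log2 fold changes were 0.71, 0.54 and 0.45, each ± 0.09 (adjusted p = 3.4e-05, 0.000731 and 0.000957), and the 3 calls held in each alternative setting.

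Genes that share a deacetylase name did not move alike. The loci PDE_05754 and PDE_05755, consecutive in number, are both named HOS3, a deacetylase of S. cerevisiae. PDE_05755 stood at 12.7, 17.9 and 14.8 FPKM in WT and at 38.4, 39.1 and 38.7 FPKM in DlaeA, a 2.49-fold rise (log2 fold change 1.31 ± 0.11, adjusted p = 8.51e-07) and the largest change of any member in the comparisons with WT. Its smaller rise in H2BK131A was 0.37 ± 0.11 (adjusted p = 0.00969), a call lost with only the 2 strains compared (adjusted p = 0.0574). Its call in H2BK123A (0.34 ± 0.11, adjusted p = 0.0257) was lost without WT 1, WT 3 or any 1 H2BK123A library (adjusted p 0.052 to 0.0899) and under median ratio scaling. PDE_05754 stood at 32.0, 11.9 and 10.2 FPKM in WT, so that 1 library, WT 1, carried most of the WT mean. It stood at 10.9, 6.66 and 8.10 FPKM in DlaeA, a call of -0.84 ± 0.33 (adjusted p = 0.0396) that was -0.36 without WT 1 (adjusted p = 0.127). This call was also lost without DlaeA 2, DlaeA 3, H2BK123A 1 or any 1 H2BK131A library. Over these 7 removals, that of WT 1 included, the adjusted p ran from 0.051 to 0.127. In H2BK131A its log2 fold change was -0.01 with WT 1 and 0.47 without it (adjusted p = 0.979 and 0.0479).

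The 2 loci named HOS2, in S. cerevisiae a subunit of the Set3 complex, also went apart. PDE_07341 stood at 31.1, 47.8 and 39.7 FPKM in WT and at 75.3, 76.9 and 72.9 FPKM in H2BK131A, a rise of 0.93 ± 0.13 on the log2 scale (adjusted p = 4.4e-05). DlaeA and H2BK123A, at 39.6 to 47.2 FPKM, lay within the WT range. PDE_05335 was called in H2BK123A, at 51.02, 54.5 and 54.0 FPKM against 36.7, 49.3 and 34.2 FPKM in WT (0.42 ± 0.12, adjusted p = 0.0162). That call was lost without WT 1 or WT 3 (adjusted p 0.0514 and 0.0695) and under median ratio scaling.

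SAP18 (PDE_00041), a subunit of the Sin3 deacetylase complex in animals, moved in H2BK131A alone among the 3 comparisons with WT. It stood at 22.1, 29.3 and 22.4 FPKM in WT, 18.4, 26.6 and 26.2 FPKM in DlaeA, 25.9, 23.2 and 23.3 FPKM in H2BK123A, and 55.9, 57.6 and 58.5 FPKM in H2BK131A. The rise was 2.30-fold (log2 fold change 1.20 ± 0.15, adjusted p = 1.61e-05). H2BK131A was also above H2BK123A by 1.22 ± 0.15 (adjusted p = 1.69e-05) and above DlaeA by 1.26 ± 0.15 (adjusted p = 8.1e-06).

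The 3 loci named SIR2, the NAD-dependent deacetylase of silent chromatin in S. cerevisiae, had 3 different patterns. PDE_08531 stood at 62.0, 71.5 and 56.7 FPKM in WT, 103, 95.3 and 101 FPKM in DlaeA, and 38.6, 38.5 and 35.2 FPKM in H2BK131A. It rose in DlaeA (log2 fold change 0.65 ± 0.10, adjusted p = 9.39e-05) and fell in H2BK131A (-0.74 ± 0.10, adjusted p = 2.89e-05), and the difference between these strains was -1.39 ± 0.10 (adjusted p = 9.24e-08). PDE_03593 stood at 21.2, 20.6 and 17.8 FPKM in WT, 28.3, 26.4 and 26.99 FPKM in H2BK123A, and 27.3, 25.6 and 27.2 FPKM in H2BK131A. It rose in both H2B strains (0.44 ± 0.09 and 0.41 ± 0.09, adjusted p = 0.00263 and 0.00178). In DlaeA it was 0.03 (adjusted p = 0.797), which became -0.24 under median ratio scaling (adjusted p = 0.0297). PDE_07191 rose in DlaeA, to 28.2, 33.8 and 34.3 FPKM from 23.1, 22.2 and 17.6 FPKM in WT (0.60 ± 0.12, adjusted p = 0.000846), and was not called in the H2B strains.

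HDAC 6 (PDE_09951), in animals a deacetylase of tubulin as well, stood at 13.6, 19.8 and 15.4 FPKM in WT. It rose to 34.1, 30.8 and 29.6 FPKM in DlaeA (log2 fold change 0.93 ± 0.12, adjusted p = 4.21e-05) and to 25.6, 27.4 and 24.4 FPKM in H2BK123A (0.65 ± 0.12, adjusted p = 0.00147). In H2BK131A it was at 18.2, 17.2 and 18.5 FPKM, inside the WT range (0.15, adjusted p = 0.293). H2BK131A was below H2BK123A (-0.50 ± 0.12, adjusted p = 0.00363).

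**Figure D4:**
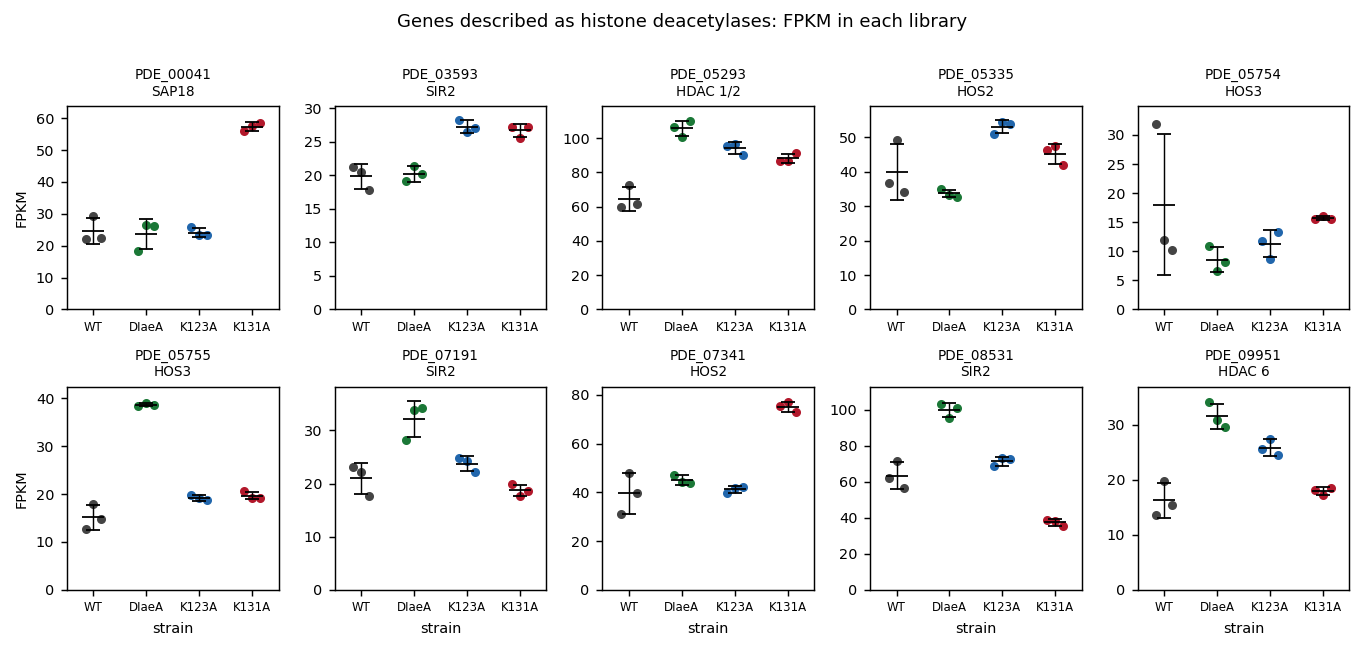
FPKM (y axes, from 0) of the 10 deacetylase members in each library by strain (x axes), with the mean and 1 SD (n = 3). PDE_05755 is at 38.4 to 39.1 FPKM in DlaeA, PDE_00041 and PDE_07341 are highest in H2BK131A, PDE_08531 is lowest there at 35.2 to 38.6 FPKM, and PDE_05754 has 1 WT library at 32.0 FPKM.

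Of the 9 methyltransferases, 4 were called in DlaeA, 3 in H2BK123A and 2 in H2BK131A. These are shares of 44.4%, 33.3% and 22.2%, against backgrounds of 69.9%, 46.6% and 70.8% of all genes. The 4 calls in DlaeA were all higher, and under median ratio scaling none of these 4 was called. With that scaling 1 other methyltransferase, PDE_01581, was called lower in DlaeA. Of the 3 loci named SUV420H that passed, an enzyme that methylates H4 in animals, a pair went opposite ways in H2BK123A. PDE_04196 stood at 6.52, 10.1 and 7.93 FPKM in WT and at 3.55, 4.64 and 3.77 FPKM in H2BK123A, with no overlap. It fell by 0.87 ± 0.17 on the log2 scale (adjusted p = 0.00149) and was below DlaeA (-1.03 ± 0.17, adjusted p = 0.000219). PDE_02696 stood at 9.95, 6.54 and 7.35 FPKM in WT and at 14.4, 14.2 and 13.4 FPKM in H2BK123A, a rise of 0.76 ± 0.18 (adjusted p = 0.00575). Both calls held in each alternative setting. The third of these loci, PDE_03989, was the most abundant methyltransferase gene in WT, at 70.1, 84.8 and 63.7 FPKM, and was not called in any mutant.

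The 2 loci named ASH1L, in animals a methyltransferase of H3, also differed. PDE_01581 stood at 20.4, 20.1 and 17.3 FPKM in WT and at 12.03, 12.3 and 11.5 FPKM in H2BK131A, a change of -0.64 ± 0.10 on the log2 scale (adjusted p = 0.000158). In DlaeA and H2BK123A it was not called (-0.20 and -0.19), but it was called lower in 3 and 2 of the 21 alternative settings. PDE_05391 stood at 9.49, 8.15 and 6.96 FPKM in WT and rose to 11.2, 12.9 and 11.95 FPKM in DlaeA (0.51 ± 0.14, adjusted p = 0.00678), a call lost under median ratio scaling. Its call in H2BK131A (0.38 ± 0.14, adjusted p = 0.0302) was lost without WT 2, WT 3, H2BK131A 1 or H2BK131A 2 (adjusted p 0.0503 to 0.117).

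SETD1 (PDE_02489), the catalytic subunit of COMPASS, stood at 17.2, 20.2 and 17.4 FPKM in WT and at 22.8, 21.7 and 21.0 FPKM in DlaeA. SETD2 (PDE_02255), which methylates H3 during transcription elongation, stood at 11.1, 12.4 and 11.6 FPKM in WT and at 15.8, 13.3 and 13.4 FPKM in DlaeA. SUV39H (PDE_00634), the enzyme of heterochromatic H3 methylation, stood at 5.19, 7.25 and 4.88 FPKM in WT and at 8.50, 7.28 and 7.06 FPKM in DlaeA. Their calls in DlaeA were small, with log2 fold changes of 0.25, 0.26 and 0.36 (adjusted p = 0.0309, 0.0309 and 0.0401), and under median ratio scaling none was called. Each was lost without WT 1, WT 3 or DlaeA 1, that of SETD1 also without DlaeA 2, and that of SUV39H also without DlaeA 2, DlaeA 3 or any 1 H2BK123A library (adjusted p up to 0.146). SETD2 was also called in H2BK123A (0.31 ± 0.10, adjusted p = 0.0198), a call lost without WT 1, H2BK123A 1 or H2BK123A 3 (adjusted p 0.0535 to 0.0611) and under median ratio scaling. The methyltransferase specific for lysine 79 of H3 (PDE_07484) lay between 26.7 and 34.3 FPKM in the 12 libraries and was not called in any of the 6 comparisons. The log2 fold changes against WT were 0.08, -0.08 and 0.09, with 95% confidence intervals inside -0.28 to 0.28. In 2 of the 21 alternative settings it was called lower in H2BK123A than in WT (down to -0.30, adjusted p down to 0.0238). In 2 it was called higher in H2BK131A than in H2BK123A (up to 0.29, adjusted p down to 0.0158).

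All 3 demethylases rose in DlaeA, 2 of them under median ratio or quantile scaling as well. JARID1 at PDE_09498, a demethylase of H3 of the jumonji type, stood at 18.1, 28.96 and 22.0 FPKM in WT and rose in the 3 mutants, to 47.1, 41.0 and 42.9 FPKM in DlaeA, 35.3, 33.8 and 35.0 FPKM in H2BK123A, and 31.9, 33.5 and 33.6 FPKM in H2BK131A. The log2 fold changes were 0.92, 0.60 and 0.53, each ± 0.14 (adjusted p = 9.99e-05, 0.0044 and 0.00467). A further locus named JARID1, PDE_07814, rose in DlaeA (0.30 ± 0.09, adjusted p = 0.0119) and fell in H2BK131A (-0.40 ± 0.09, adjusted p = 0.0021). Its call in DlaeA was lost under median ratio and quantile scaling and with only the 2 strains compared. The gene named lysine-specific demethylase 1A (PDE_08352), a flavin-dependent enzyme that acts on H3, rose from 17.2, 24.6 and 17.9 FPKM in WT to 31.4, 33.4 and 31.1 FPKM in DlaeA (0.67 ± 0.12, adjusted p = 0.000464).

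**Figure D5:**
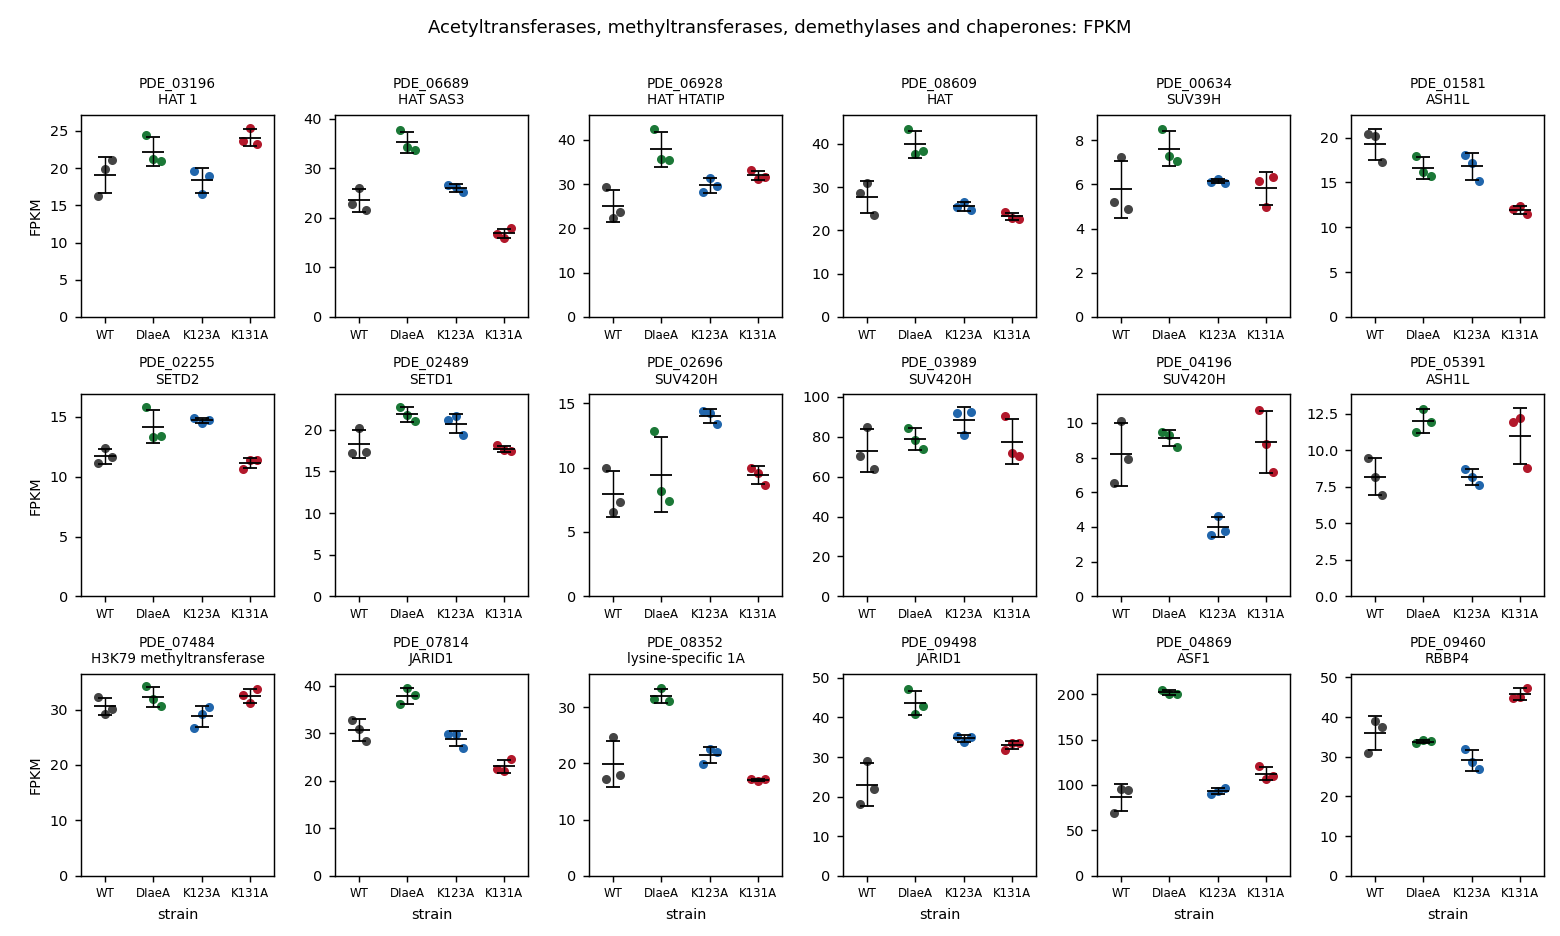
FPKM (y axes, from 0) of the acetyltransferase, methyltransferase, demethylase and chaperone members in each library by strain (x axes), with the mean and 1 SD (n = 3). ASF1 (PDE_04869) is at 201 to 205 FPKM in DlaeA against 69.0 to 95.5 FPKM in WT, and PDE_04196 is at 3.55 to 4.64 FPKM in H2BK123A, its lowest strain.

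The H2B strains were compared directly, which tests the difference between the mutations without WT. Of 36 members, 18 differed between H2BK131A and H2BK123A, 8 higher and 10 lower in H2BK131A, a share of 50% against a background of 68.7% (32.9% higher, 35.8% lower). The largest differences were those of SAP18, PDE_04196 (0.98 ± 0.17, adjusted p = 0.000249), PDE_08531 (-0.92 ± 0.10, adjusted p = 5.89e-06), PDE_07341 (0.85 ± 0.13, adjusted p = 9.83e-05) and CENP-A. SAS3 was lower in H2BK131A (-0.60 ± 0.09, adjusted p = 0.000141). For H1, HDAC 1/2 and PDE_08392 no difference was called between the H2B strains (log2 differences of -0.23, -0.09 and -0.06, adjusted p = 0.059, 0.394 and 0.616). H1 was called lower in H2BK131A in 5 of the 21 alternative settings (log2 difference down to -0.31, adjusted p down to 0.0102), and PDE_08392 under quantile scaling as given above. H3 was lower in H2BK131A (-0.40 ± 0.16, adjusted p = 0.0371), a call lost on leaving out any 1 of DlaeA 2, DlaeA 3, H2BK123A 1, H2BK123A 3 or any H2BK131A library (adjusted p 0.0514 to 0.124).

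Against DlaeA, H2BK123A had 18 members called, 7 higher and 11 lower, a share of 50% against a background of 61.2% (28.1% higher, 33.1% lower). H2BK131A had 24 called, 9 higher and 15 lower, a share of 66.7% against a background of 77.5% (36.2% higher, 41.3% lower). H2A and H2B were above DlaeA in both H2B strains, H2A by 0.62 ± 0.13 in H2BK123A and 0.56 ± 0.13 in H2BK131A (adjusted p = 0.00159 and 0.00218) and H2B by 0.37 ± 0.13 and 0.57 ± 0.13 (adjusted p = 0.0243 and 0.00148). The H2B call in H2BK123A was lost without DlaeA 1, DlaeA 3, H2BK123A 1 or H2BK123A 3 (adjusted p 0.0624 to 0.0788). Under quantile scaling 3 of these 4 calls were lost, with log2 differences of 0.27 for H2A in H2BK131A (adjusted p = 0.124), 0.26 for H2B in H2BK123A (adjusted p = 0.116) and 0.23 for H2B in H2BK131A (adjusted p = 0.139). ASF1 and HOS3 (PDE_05755) were below DlaeA in both H2B strains, ASF1 by -1.10 ± 0.12 and -0.84 ± 0.12 (adjusted p = 9.63e-06 and 4.7e-05) and PDE_05755 by -0.98 ± 0.11 and -0.94 ± 0.11 (adjusted p = 1.23e-05 and 8.19e-06).

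The machinery that places ubiquitin on H2B and acts with it was taken as a list of 20 genes without the members (Rad6, Bre1, Paf1 complex, COMPASS and the Ubp8 module). In DlaeA 9 rose and 3 fell, in H2BK123A 4 rose and 3 fell, and in H2BK131A 5 rose and 6 fell, and the median log2 fold changes were 0.18, 0.09 and -0.04. The shares called were 60%, 35% and 55%, against 69.9%, 46.6% and 70.8% of all genes. With median ratio scaling the splits were 5 and 6, 3 and 6, and 3 and 9. The gene of the Rad6 type (PDE_08059, ubiquitin-conjugating enzyme E2 A) stood at 78.3, 109 and 80.3 FPKM in WT. It rose to 193, 174 and 159 FPKM in DlaeA and 152, 143 and 150 FPKM in H2BK123A. The log2 fold changes were 0.98 ± 0.13 and 0.74 ± 0.13 (adjusted p = 3.61e-05 and 0.000802). In H2BK131A it stood at 123, 111 and 112 FPKM, all above the highest WT library. BRE1 (PDE_03581), its partner ligase, rose in DlaeA by 0.44 and was not called in the H2B strains (0.06 and -0.02). Of the 2 loci named as a USP22 type deubiquitylase (the Ubp8 family), only PDE_09350 is given here. Its log2 fold changes were 0.68, 0.43 and -0.51 in DlaeA, H2BK123A and H2BK131A, each called. The larger falls came from loci that share a name with another locus. Of the 3 loci named SPP1, a COMPASS subunit, PDE_09099 and PDE_05171 fell in the 3 mutants, PDE_09099 from a mean of 54.9 FPKM in WT to 12.5, 36.5 and 7.85 FPKM in DlaeA, H2BK123A and H2BK131A, and PDE_05171 from 34.9 to 18.9, 13.6 and 10.4 FPKM. Of the 2 loci named CTR9, a Paf1 subunit, PDE_02281 fell from 80.4 ± 30.0 FPKM to 5.89 ± 0.70, 21.5 ± 1.65 and 22.4 ± 1.18 FPKM (SD, n = 3), while PDE_02275 rose in DlaeA (0.49) and was not called in the H2B strains.

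Other chromatin lists, also without the members, split as follows. Of 19 SAGA and NuA4 subunits, 7 rose and 1 fell in DlaeA, 4 and 2 in H2BK123A, and 3 and 8 in H2BK131A. Of 32 chromatin remodelling genes, 18 rose and 3 fell in DlaeA, 5 and 4 in H2BK123A, and 5 and 12 in H2BK131A. The remodelling count includes PDE_07809, which is described as an ISWI complex subunit but carries the KEGG name of a glucosyltransferase, and which was called higher in DlaeA and H2BK123A. With median ratio scaling the SAGA and NuA4 splits in the 3 mutants were 5 and 5, 2 and 5, and 1 and 9. The remodelling splits were then 11 and 10, 2 and 14, and 3 and 18. Without that scaling, the shares called were 42.1%, 31.6% and 57.9% for SAGA and NuA4, and 65.6%, 28.1% and 53.1% for remodelling. The backgrounds were 69.9%, 46.6% and 70.8% of all genes. Of 8 nucleosome assembly genes, 5 rose and 2 fell in DlaeA, 3 rose and 3 fell in H2BK123A, and 3 rose and 2 fell in H2BK131A. These are shares of 87.5%, 75% and 62.5% against the same backgrounds. Their median ratio splits were 3 and 3, 2 and 3, and 2 and 4. NAP1 (PDE_02319), a chaperone of H2A and H2B, stood at 144, 244 and 182 FPKM in WT and at 424, 421 and 435 FPKM in DlaeA, a rise of 1.20 ± 0.15 on the log2 scale (adjusted p = 3.17e-05). NAP1 also rose in H2BK123A (0.69 ± 0.15, adjusted p = 0.00368) and H2BK131A (0.83 ± 0.15, adjusted p = 0.000487). Of the 3 loci named HIRA/HIR1, a chaperone of H3 and H4, PDE_05118 and PDE_07069 are given here. PDE_05118 fell from a mean of 2310 FPKM in WT to 846 FPKM in DlaeA, 1228 FPKM in H2BK123A and 58.3 FPKM in H2BK131A. The log2 fold changes were -1.39, -0.93 and -5.23 (adjusted p = 0.00162, 0.0267 and 3.72e-08). Its WT libraries, at 3247, 1565 and 2119 FPKM, overlapped those of H2BK123A, at 757, 1763 and 1163 FPKM. PDE_07069 averaged only 77.9 FPKM in WT, and whether either locus encodes the chaperone was not tested. PDE_07069 fell in DlaeA and H2BK123A (-0.76 and -0.49) and rose in H2BK131A (1.10).

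The summed FPKM of the markers of asexual structures was 948.5 to 7556 in WT, 1299 to 1458 in DlaeA, 1598 to 1930 in H2BK123A and 105 to 547 in H2BK131A. By this sum DlaeA and H2BK123A lay inside the WT range and H2BK131A below it, and none of the 7 was at 0 in any library. Of the 7, 4 rose and 3 fell in DlaeA, none was called in H2BK123A, and 5 fell in H2BK131A. The log2 fold changes in DlaeA ran from -9.96 to 5.66, so the sum does not stand for the single markers there. Among the 4 that rose, BrlA at PDE_00087 averaged 435 FPKM in DlaeA against 18.1 FPKM in WT. The part of asexual structures in the results on histones and their modifiers was not tested.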

How the data were processed

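Digital gene expression libraries of mycelial RNA were made by the authors, with short tags cut next to NlaIII sites, per the labels' protocols. The deposited table gives 1 FPKM value per gene and library, per the file headers. Tag numbers do not depend on transcript length, so comparisons of FPKM between genes depend on the lengths the authors used. The sources used here name no aligner, counting method or genome build. The table holds no counts, so the depth is unknown. Low values fell on steps of 1 read for 81.6% of 450 values of 113 low genes, within 0.1 read, which was too few to recover reads, and a count model was not used.

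The deposited FPKM were analysed as log2(FPKM + 1) with limma 3.58.1 in R 4.3.3, with strain means over all 12 libraries (8 residual degrees of freedom), empirical Bayes with a mean-variance trend, two-sided tests and Benjamini-Hochberg adjustment over 9431 genes in each of 6 comparisons. This scale understates the change of low genes. Genes with at least 1 FPKM in at least 3 libraries were tested, and adjusted p-values under 0.05 counted as calls. The fit was tested on simulated data. Groups and replicate numbers come from the sample titles. Nothing says that the libraries of a strain are separate cultures, so p-values measure only the spread between libraries, which may be technical. Replicate numbers did not pair libraries across strains: of 18 same-numbered pairs, 3 had deviations from the strain means that correlated above 0.1 (range -0.224 to 0.211).

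The members and gene lists were chosen with earlier results of these data known. Named were all histone, deacetylase and methyltransferase members and the 8 called members with the largest fold change in each comparison with WT. Another 6 members were named after their values were seen. The 14 genes with histone only among several KEGG names were left out. The reference gene table used here matched 0 loci, so no coordinates or sequences are given. Results were recomputed under 19 other settings and under 2 chosen after seeing the data, the averaging of DlaeA 2 and DlaeA 3 and library quality weights.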

Additional observations from a re-analysis of the deposited data

How the results depend on the processing

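Over the 6 comparisons, 72 of 115 member calls held in each of the 21 alternatives, 43 were lost or reversed in at least 1, and 50 fold changes that were not called became called in at least 1. Against WT, 13 of 24 calls held in DlaeA, 7 of 12 in H2BK123A and 13 of 19 in H2BK131A. Fitting only the 2 strains compared left 7 members called in H2BK123A against WT, 6 higher and 1 lower. In DlaeA it ended the calls of PDE_00232, PDE_00233, PDE_00634, PDE_02255, PDE_02489, PDE_05754, PDE_07814 and PDE_09954. In H2BK131A it ended those of PDE_03196, PDE_04869, PDE_05391, PDE_05755 and PDE_06928. The shares of all genes called were then 62% in DlaeA, 35.4% in H2BK123A and 63.7% in H2BK131A. Leaving out each library in turn gave 18 to 24 called members in DlaeA, 9 to 16 in H2BK123A and 17 to 20 in H2BK131A against WT. The same gave 14 to 22 in H2BK123A and 20 to 25 in H2BK131A against DlaeA, and 12 to 22 in H2BK131A against H2BK123A.

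Among members called in DlaeA against WT with or without median ratio scaling, that scaling changed the sign of the log2 fold change of PDE_09954 (-0.0093, adjusted p = 0.916), PDE_02489 (-0.0182, adjusted p = 0.836), PDE_02255 (-0.0035, adjusted p = 0.973) and PDE_03593 (-0.24, adjusted p = 0.0297). It moves the median of all genes by construction, and members called in neither case also changed sign. Without WT replicate 1, PDE_05754 in H2BK131A against WT changed sign to 0.47 (adjusted p = 0.0479), and leaving out each library in turn gave -0.30 to 0.47. Averaging DlaeA 2 and DlaeA 3, chosen after seeing the data, left 18 calls in DlaeA against WT. With the replicate number as a block, the called members numbered 20, 11 and 19 in DlaeA, H2BK123A and H2BK131A against WT, 18 and 23 in H2BK123A and H2BK131A against DlaeA, and 17 in H2BK131A against H2BK123A. Without counts, no interval for low genes can be given.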
